A study of Mus musculus with 8 samples.

Results

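The genes described here encode subunits of the mitochondrial oxidative phosphorylation system. They are all genes of the array whose name begins with one of 16 prefixes (Ndufa, Ndufb, Ndufc, Ndufs, Ndufv, Sdha, Sdhb, Sdhc, Sdhd, Uqcr, Cox4, Cox5, Cox6, Cox7, Cox8 and Atp5), each represented by its brightest probe over the 8 arrays. The prefixes took 92 of the 34844 gene names on the array. These were 36 subunits of complex I, 4 of complex II, 8 of complex III, 20 of complex IV and 15 of complex V. The others were 6 assembly factors, taken by names that begin with Ndufaf or Sdhaf, and 3 genes counted as neither subunit nor assembly factor. Ndufa4 and Ndufa4l2 were counted with complex IV, to which their proteins are now assigned.

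The cells were bone marrow-derived macrophages (BMDMs), which are grown in culture from bone marrow precursors, of male C57BL/6J mice with no further genetic change named in the labels. Cells of 4 mice were given siRNA whose target is the terminal loop of RNY, the Y RNAs, and cells of the same 4 mice were given control siRNA. The sample descriptions write siRNAs and RNYs, in the plural, for the first group and siRNA for the control. Y RNAs are short noncoding transcripts that associate with Ro60 and La. Each of the 8 samples was hybridised to its own 1-colour Agilent array from 0.2 µg of RNA. The RNA integrity number was 10 in all 4 samples of the Y RNA siRNA, against 10 in control samples 1 to 3 and 8 in the control sample of mouse 4. Neither the ages of the mice nor the sequence, dose or duration of the siRNA treatment is given in the sources used here. No probe carries the name Rny1 or Rny3, so the level of the targeted RNAs was not analysed here.

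Oxidative phosphorylation couples the oxidation of nutrients to ATP synthesis in the inner mitochondrial membrane. Complex I takes electrons from NADH and complex II from succinate, complex III hands them to cytochrome c, complex IV passes them to oxygen, and complex V uses the resulting proton gradient to make ATP. In macrophages the balance between this system and glycolysis is known to shift with activation. Most subunits are encoded in the nucleus and a small core is encoded by mitochondrial DNA. Several subunits of complex IV exist as isoforms: Cox6a2, Cox7a1 and Cox8b are known from heart and skeletal muscle, Cox4i2 from lung, Cox6b2, Cox7b2 and Cox8c from testis, and Ndufa4l2 is a hypoxia-induced relative of Ndufa4.

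The transcription factors NRF1, GABP (an ETS family factor) and YY1 are known regulators of nuclear genes for respiratory subunits, so the promoters were searched for their motifs. RefSeq promoter windows on build GRCm38.p6, each with 250 bases before and 50 bases after the gene's start, were matched for 76 of the 92 members, all of which matched a RefSeq gene. Of the 66 detected subunits with a window, 11 (16.7%) held the NRF1 core GCATGCG on either strand, against 4.01% of all 27025 genes with a window, detected or not. The ETS core CCGGAAG was found in 16 (24.2%), against 9.93% of all genes. The YY1 core GATGGCG was found in 9 (13.6%), against 4.04% of all genes. The TATA motif TATAAA was found in 5 (7.58%), against 15.7% of all genes. The shares differed between complexes I to V, which had 32, 3, 5, 14 and 14 genes with a window. The ETS core was in 12.5%, 66.7%, 40.0%, 21.4% and 35.7% of them. The NRF1 core was in 9.38%, 33.3%, 40.0%, 7.14% and 28.6%, and the YY1 core in 18.8%, 0.0%, 0.0%, 14.3% and 14.3%. Complex IV here includes members that were not detected. Both strands were searched for each motif, matches were allowed to overlap, and a match describes these letters only. The subunits and all genes were not matched for base composition. The NRF1 and YY1 cores replaced longer forms of these motifs after the shares of the longer forms had been seen.

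**Figure D1:**
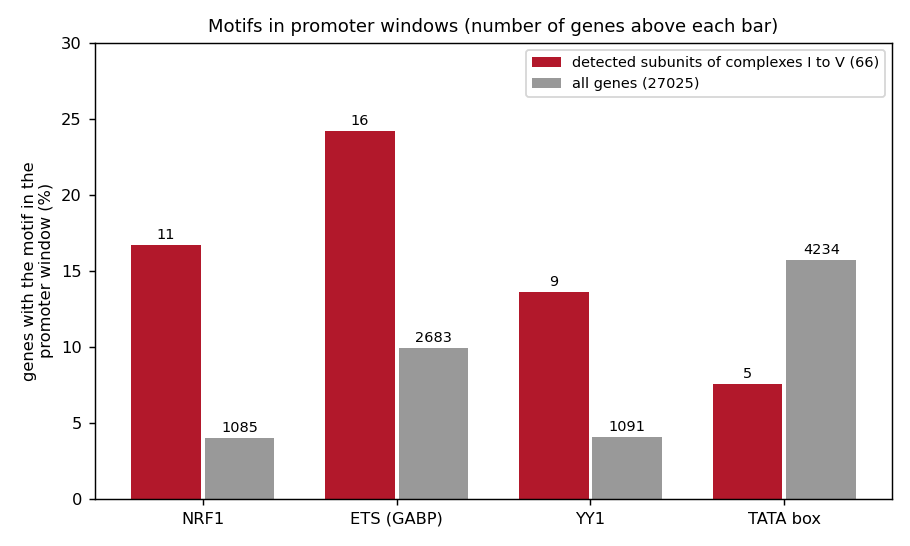
Share of genes (%) with each motif in the promoter window of 300 bases, for the 66 detected subunits of complexes I to V (left bar of each pair) and for all 27025 genes with a window (right bar); numbers above bars count genes. NRF1, ETS and YY1 cores stand at 16.7%, 24.2% and 13.6% of the subunits, each above its share of all genes, and the TATA motif at 7.58% is below.

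Windows of 5 complex IV isoforms are shown as examples that held several of the motifs, 1 of them or none. Cox6a1, Cox8a and Cox7a2, which serve most tissues, were well above background on 8 of 8 arrays, as was the muscle isoform Cox7a1, while the muscle isoform Cox8b was not well above background on any array. Capitals mark 2 overlapping NRF1 matches, an ETS match and a YY1 match in Cox6a1 (chr5:115348909-115349208, minus strand), ETS matches in Cox8a (chr19:7217567-7217866, minus strand) and the TATA match in Cox8b (chr7:140900397-140900696, minus strand). Cox7a2 (chr9:79759804-79760103, minus strand) and Cox7a1 (chr7:30183921-30184220, plus strand) held none of the 4 motifs.
Cox6a1: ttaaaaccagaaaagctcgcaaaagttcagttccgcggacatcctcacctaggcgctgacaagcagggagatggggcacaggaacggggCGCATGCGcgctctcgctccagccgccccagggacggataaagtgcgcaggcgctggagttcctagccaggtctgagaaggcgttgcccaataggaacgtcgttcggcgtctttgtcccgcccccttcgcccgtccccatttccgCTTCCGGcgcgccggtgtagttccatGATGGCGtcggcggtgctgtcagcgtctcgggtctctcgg
Cox8a: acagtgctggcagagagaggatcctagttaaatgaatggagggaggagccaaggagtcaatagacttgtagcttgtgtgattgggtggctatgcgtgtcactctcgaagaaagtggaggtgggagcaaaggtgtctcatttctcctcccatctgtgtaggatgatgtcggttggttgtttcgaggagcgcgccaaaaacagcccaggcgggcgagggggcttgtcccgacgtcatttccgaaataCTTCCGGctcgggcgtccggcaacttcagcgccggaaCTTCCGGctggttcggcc
Cox8b: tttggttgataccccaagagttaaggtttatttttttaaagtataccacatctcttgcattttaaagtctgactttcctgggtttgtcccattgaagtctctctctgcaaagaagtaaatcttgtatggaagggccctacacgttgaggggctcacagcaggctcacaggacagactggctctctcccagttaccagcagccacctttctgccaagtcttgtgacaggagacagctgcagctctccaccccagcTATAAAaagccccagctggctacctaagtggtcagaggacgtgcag
Cox7a2: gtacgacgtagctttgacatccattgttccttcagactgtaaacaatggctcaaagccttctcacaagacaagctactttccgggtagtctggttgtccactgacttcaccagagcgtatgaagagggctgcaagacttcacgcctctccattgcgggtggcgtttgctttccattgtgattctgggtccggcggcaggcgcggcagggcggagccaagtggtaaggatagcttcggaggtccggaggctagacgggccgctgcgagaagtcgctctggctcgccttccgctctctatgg
Cox7a1: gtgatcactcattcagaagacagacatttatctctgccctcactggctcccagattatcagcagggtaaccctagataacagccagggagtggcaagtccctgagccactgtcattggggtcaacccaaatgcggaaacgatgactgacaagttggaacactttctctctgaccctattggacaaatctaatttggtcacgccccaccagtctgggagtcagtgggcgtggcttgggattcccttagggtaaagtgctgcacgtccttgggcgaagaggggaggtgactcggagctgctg
Among the muscle, testis, lung and hypoxia isoforms, 4 had a window. None of these held an NRF1 or ETS match, 1 held a YY1 match and 2 held the TATA motif. Of the 6 isoforms outside muscle with a window, 1 held an NRF1 match, 3 an ETS match, 1 a YY1 match and 0 the TATA motif.

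Nearly the whole system was measured in these cells. Of the 92 members, 88 were well above background on 8 of 8 arrays (95.7%), against 51.1% of all gene names. Every member of complexes I, II, III and V, all 6 assembly factors and the 3 other genes were among them. The exceptions all belong to complex IV. Ndufa4l2 was well above background on 4 of 4 arrays of the Y RNA siRNA and on 3 of 4 control arrays, and Cox7b2, Cox8b and Cox8c were on 0 of 8. These 3 isoforms were left out of the tests, so 89 members were tested among 19172 genes. The cells carried macrophage markers, with 9 of 9 detected. Of 8 muscle markers 3 were detected on at least 4 arrays, while Actc1, Ckm, Acta1 and Myh1 were not well above background on any array, and the summed muscle marker signal was 7.68e-05% to 0.000152% of an array's total in Y RNA siRNA samples and 7.21e-05% to 0.000116% in control samples. In total RNA of a culture, fewer cells of a type and less RNA per cell cannot be told apart.

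Levels below are log2 processed signal minus the 75th percentile of its array, given for mice 1 to 4, and differences are Y RNA siRNA minus control siRNA on that scale. The tests are those of limma across all genes, with the Benjamini-Hochberg adjustment and a threshold of 0.05. With 4 arrays a group, p-values measure the spread between these samples, and no label says that the cells were cultured separately.

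No member passed the test for a change with the Y RNA siRNA. Of the 89 tested members, 0 passed the threshold, and so did 0 of the 19172 genes (0%). At an unadjusted p under 0.05 there were 0 members, while 654 genes (3.41%) lay there. A fixed block for the mouse gave 0 members and 0 genes past the threshold, and at an unadjusted p under 0.05 there were 1 member, Cox4i2, and 9.32% of all genes. With the mouse as a random block, 0 members and 11 genes (0.0574%) passed. The median difference over the members was -0.0077, against 0.0045 over all genes. When each array was centred on its median instead, the medians were 0.022 over the members and 0.034 over all genes. The median absolute difference was 0.028 over the members, with a median standard error of 0.063, against 0.059 and 0.095 over all genes.

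The absence of a call came with narrow intervals. In the fit without a block, the 95% interval of the difference lay within a 1.5-fold change in either direction for 86 of the 89 members. The same held for 84.7% of all genes. The 3 other members were Ndufa12, Cox6a2 and Ndufa4l2. For all 89 members the interval lay within a 2-fold change, against 95.6% of all genes. By direction, 40 members were higher on average (52.2% of all genes were), 5 were higher in 4 of 4 mice (10.4%) and 4 were lower in 4 of 4 mice (8.85%). The groups did not overlap for 2 members, 1 higher (1.34% of all genes were) and 1 lower (1.09%), against 2.43% of all genes in either direction, a share near that background.

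**Figure D2:**
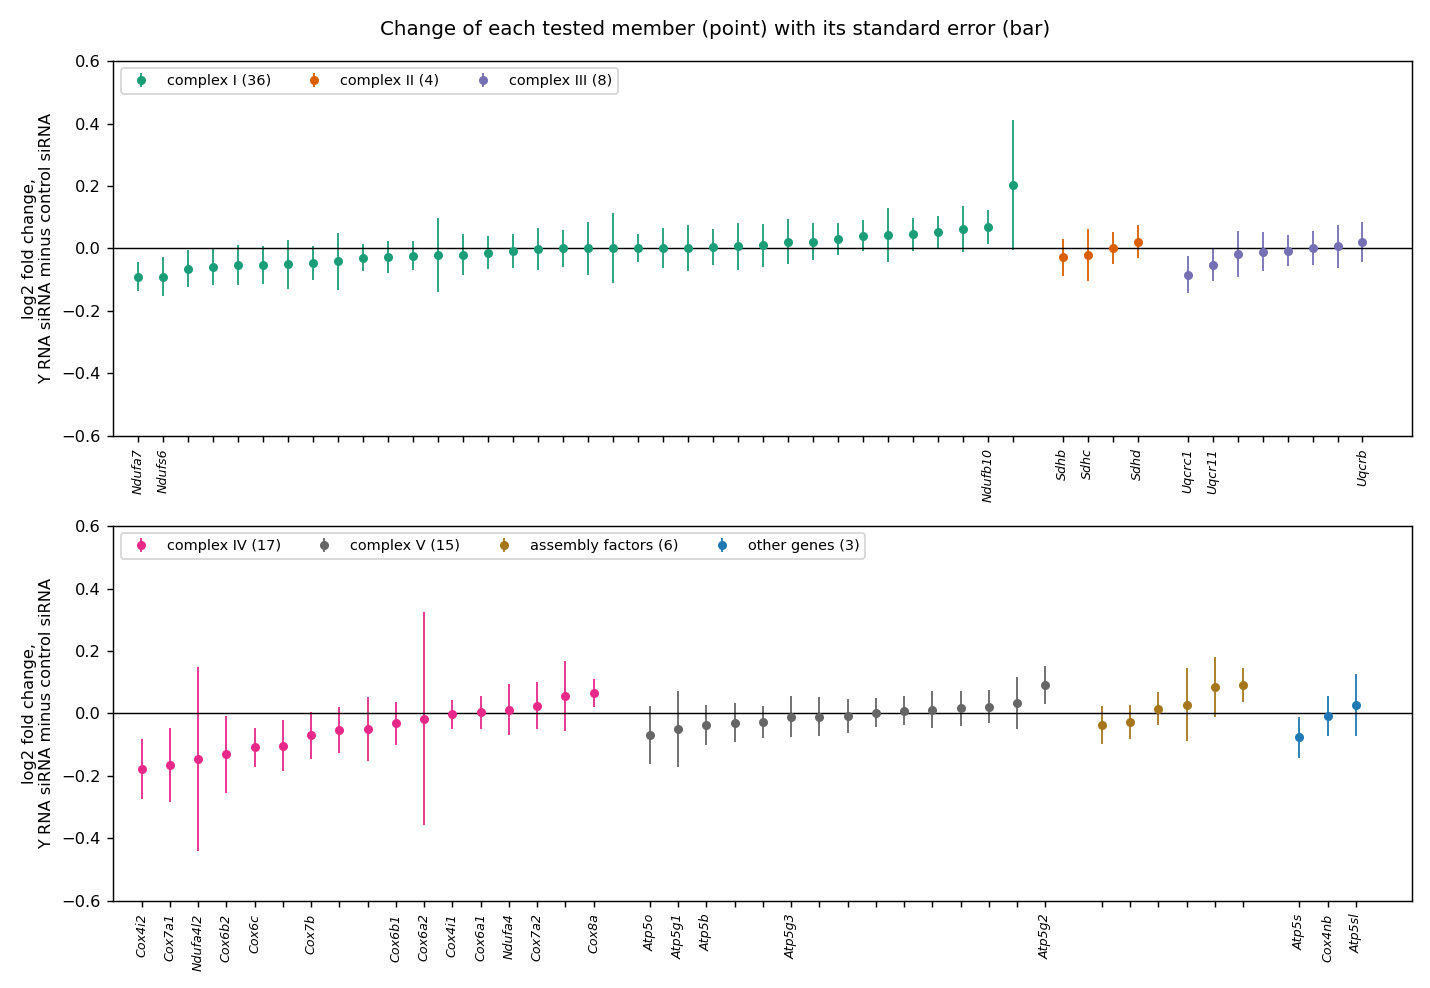
Log2 fold change, Y RNA siRNA minus control siRNA, of the 89 tested members (points) with the standard error of the limma fit (bars), ordered by value within complexes I to III (top) and complexes IV and V, assembly factors and other genes (bottom); labels mark the members named by rule. Points lie between -0.18 for Cox4i2 and 0.20 for Ndufa12 (the rightmost, unlabelled point of complex I), and the widest bars belong to Cox6a2, Ndufa4l2 and Ndufa12.

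Complex I, the NADH dehydrogenase, had 36 tested subunits, of which 18 were higher and 18 lower, with a median difference of -1.4e-05. Ndufa7, an accessory subunit, had levels of 6.25, 6.24, 6.22 and 6.27 in Y RNA siRNA samples, against 6.28, 6.38, 6.30 and 6.36 in control samples. The groups did not overlap, every Y RNA siRNA sample being the lower, yet the difference of -0.090 ± 0.048 (SE) had an adjusted p of 1. Ndufs6, a zinc-binding accessory subunit, averaged 6.13 ± 0.037 in Y RNA siRNA samples and 6.22 ± 0.099 in control samples (SD, n = 4 each). Ndufb10, an accessory subunit of the membrane arm, averaged 6.33 ± 0.048 in Y RNA siRNA samples and 6.27 ± 0.064 in control samples (SD, n = 4 each) and was higher in 4 of 4 mice. Neither passed the test.

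The largest difference of any member, picked out after its value was seen, was that of the complex I subunit Ndufa12. Its levels were 5.35, 5.42, 5.64 and 5.41 in Y RNA siRNA samples, against 5.18, 5.58, 5.60 and 4.63 in control samples. The control sample of mouse 4, which had the lower RNA integrity number, was the lowest of the 8, and the groups overlapped. The difference was 0.20 ± 0.21 (SE), smaller than its own error. Whether RNA quality had a part in that value was not tested.

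Complex II, the succinate dehydrogenase that also serves the citric acid cycle, is encoded wholly in the nucleus. The catalytic subunit Sdha, picked out for its role, had levels of 5.08, 5.01, 5.13 and 5.11 in Y RNA siRNA samples, against 5.03, 5.06, 5.11 and 5.14 in control samples. The groups overlapped throughout, with a difference of 0.0017 ± 0.052 (SE). The iron-sulfur subunit Sdhb had levels of 6.68, 6.50, 6.49 and 6.49 in Y RNA siRNA samples, against 6.58, 6.56, 6.53 and 6.61 in control samples. Mouse 1 stood above the others under the Y RNA siRNA only. For the membrane anchors the differences were -0.021 ± 0.084 (Sdhc) and 0.022 ± 0.052 (Sdhd), given with their SE.

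Complex III, the cytochrome bc1 complex, had 8 nuclear subunits in the test, with a median difference of -0.0089. Uqcrc1, one of its large core proteins, had levels of 3.56, 3.51, 3.69 and 3.58 in Y RNA siRNA samples, against 3.59, 3.71, 3.72 and 3.66 in control samples. It was lower in 4 of 4 mice, while the groups overlapped and the difference of -0.084 ± 0.059 (SE) did not pass. For the small subunits Uqcr11 and Uqcrb the differences were -0.053 ± 0.053 and 0.020 ± 0.064 (SE). Uqcrfs1, the Rieske iron-sulfur protein that takes the first electron from ubiquinol, was picked out for its role and had a difference of 0.0069 ± 0.068 (SE).

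Complex IV, cytochrome c oxidase, had the lowest median of the 5 complexes at -0.051, with 12 of 17 tested members lower. No test was made of that median. Cox8a, the isoform of subunit VIII outside muscle, had levels of 7.76, 7.73, 7.73 and 7.68 in Y RNA siRNA samples, against 7.64, 7.68, 7.63 and 7.67 in control samples. The groups did not overlap, all Y RNA siRNA samples being the higher, and the difference of 0.065 ± 0.045 (SE), 1.05-fold, had an adjusted p of 1. A second Cox8a probe gave 0.030. Cox6c, a membrane subunit, averaged 5.81 ± 0.086 in Y RNA siRNA samples and 5.92 ± 0.067 in control samples (SD, n = 4 each), a difference that did not pass. Cox5a, a subunit on the matrix side, had one high value, 7.85 in the control sample of mouse 4, against 7.48 to 7.61 in the other control samples and 7.49 to 7.54 in Y RNA siRNA samples. It was picked out for that value.

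For the isoforms of complex IV that serve most tissues, the levels were close between arrays. Cox4i1, the regulatory subunit, had levels of 7.82, 7.83, 7.83 and 7.81 in Y RNA siRNA samples, against 7.78, 7.80, 7.84 and 7.89 in control samples. Its difference of -0.0027 had a 95% interval from -0.11 to 0.105. The differences were 0.0036 for Cox6a1, -0.032 for Cox6b1, 0.025 for Cox7a2, -0.071 for Cox7b and 0.012 for Ndufa4. The SE of these 5 lay between 0.052 and 0.082, and none passed the test.

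The isoforms known from muscle, testis, lung or hypoxia were lower on average for 5 of 5 tested, with a median difference of -0.15, and none passed the test (4 of 5 were lower when arrays were centred on the median). Cox4i2 had levels of -1.90, -1.77, -2.13 and -2.01 in Y RNA siRNA samples, against -1.68, -1.69, -1.96 and -1.78 in control samples. It was lower in 4 of 4 mice while the groups overlapped, and the difference was -0.18 ± 0.097 (SE), with an adjusted p of 0.41 in the fit with the mouse as a fixed block. Cox7a1 had levels of 1.77, 1.84, 2.08 and 1.95 in Y RNA siRNA samples, against 1.76, 2.16, 2.25 and 2.14 in control samples. Its 2 arrays of mouse 1 were nearly equal, and the 3 other mice were lower under the Y RNA siRNA.

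Cox6b2 had levels of -0.67, -1.09, -1.05 and -1.19 in Y RNA siRNA samples, against -0.67, -0.98, -0.92 and -0.91 in control samples. Its difference was -0.13 ± 0.12 (SE), and both arrays of mouse 1 were the highest of their group. Ndufa4l2 had levels of -3.96, -3.90, -4.04 and -3.81 in Y RNA siRNA samples, against -4.76, -3.58, -3.53 and -3.26 in control samples. The control sample of mouse 1, where the probe was not well above background, was far below the others. Without that array 5 of 5 isoforms were again lower and their median was -0.27. Without the control sample of mouse 4, 3 of 5 were lower, with a median of -0.14, and without both samples of mouse 4, 4 of 5 were, with a median of -0.081. On the slide, columns 1 and 3 held the Y RNA siRNA arrays while columns 2 and 4 held the control arrays, and the effects of column and siRNA cannot be told apart.

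**Figure D3:**
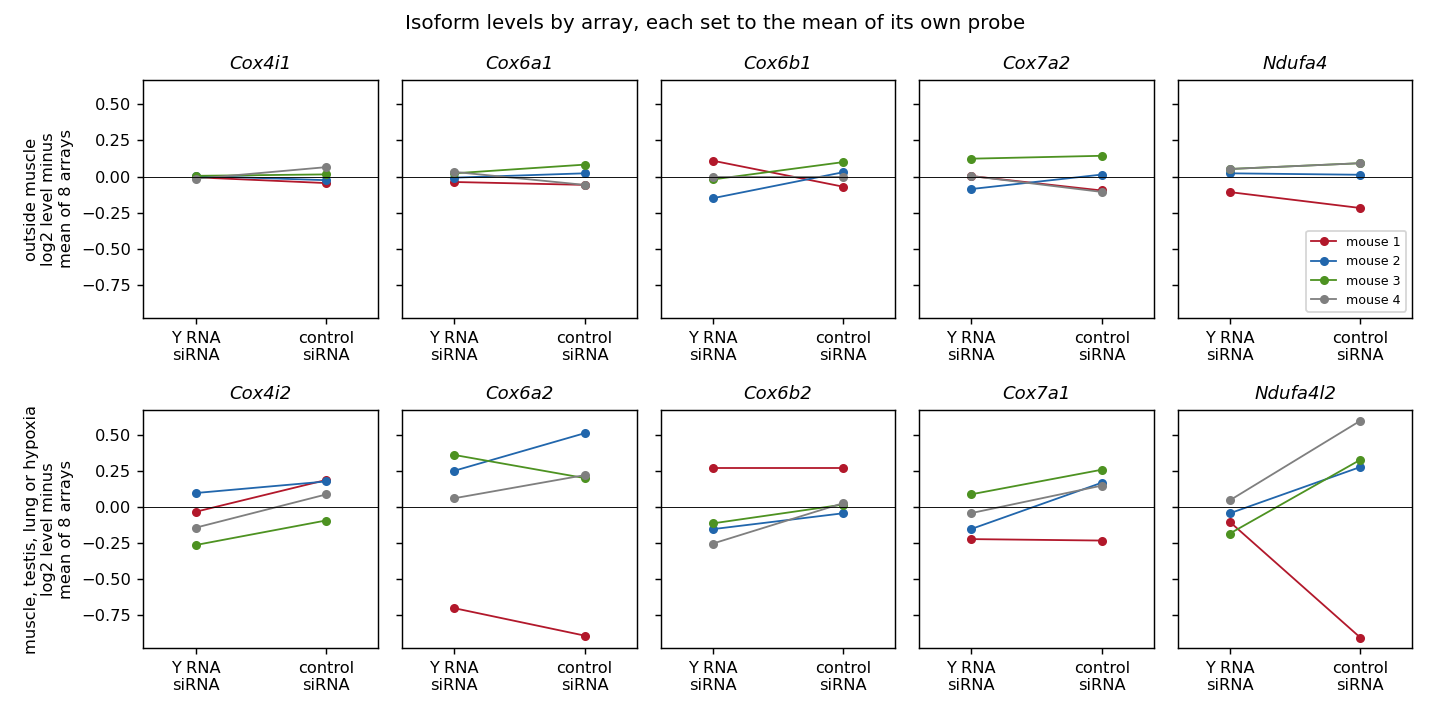
Log2 level of each isoform in Y RNA siRNA (left of each panel) and control siRNA samples (right), minus the mean of its own probe over 8 arrays; lines join the 2 samples of a mouse. In the lower row mouse 1 stands apart for Cox6a2 on both arrays and for Ndufa4l2 on the control array.

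Complex V, the ATP synthase, had 15 tested subunits with a median difference of -0.0087, 7 of them higher and 8 lower. The membrane ring is built from 1 protein, the c subunit, that 3 genes encode. Atp5g2 had levels of 8.06, 8.04, 7.89 and 7.95 in Y RNA siRNA samples, against 7.91, 7.96, 7.81 and 7.89 in control samples. It was higher in 4 of 4 mice, the groups overlapped, and its difference of 0.090 ± 0.061 (SE) did not pass. The other c subunit genes had differences of -0.049 ± 0.12 (Atp5g1) and -0.010 ± 0.065 (Atp5g3). Atp5o, part of the stalk that holds the catalytic head, had -0.069 ± 0.093 (SE), and Atp5b, the catalytic subunit, had -0.037 ± 0.064 (SE). The 5 genes of the F1 head had differences between -0.037 and 0.012.

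The assembly factors, which help to build the complexes without staying in them, had a median difference of 0.022. Sdhaf2, which attaches the flavin cofactor to Sdha, averaged 2.00 ± 0.039 in Y RNA siRNA samples and 1.91 ± 0.067 in control samples (SD, n = 4 each) and was higher in 4 of 4 mice. It did not pass the test, and it was picked out for that direction. The 3 genes counted as neither subunit nor assembly factor were sorted by name only. Cox4nb (now Emc8, of a complex that inserts membrane proteins in the endoplasmic reticulum) had a difference of -0.0092. Atp5s (now Dmac2l) had -0.077 and Atp5sl (now Dmac2) had 0.028.

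Subunits encoded by mitochondrial DNA lie outside the prefixes and carry the array names ND1 to ND6, ND4L, COX1 to COX3, CYTB, ATP6 and ATP8. All 13 were detected on 8 of 8 arrays, and all 13 were lower on average under the Y RNA siRNA, with a median difference of -0.087 and a range from -0.14 to -0.045. None passed the test. The median difference was -0.044, -0.12, -0.097 and -0.087 in mice 1 to 4, against 0.023, 0.0044, 0.015 and -0.019 over all genes. Mitochondrial DNA is transcribed as long precursors, so these 13 values are not independent, and no test was made of the list. ND4, picked out because its groups did not overlap, had levels of 6.74, 6.75, 6.71 and 6.64 in Y RNA siRNA samples, against 6.77, 6.76, 6.79 and 6.80 in control samples. Its difference was -0.067 ± 0.047 (SE). Among all genes, 1.09% were lower with groups that did not overlap. The 13 were also lower under every alternative tried, with medians between -0.13 and -0.058.

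Lists of other genes around the system gave no call either. Of the 14 tested regulators of mitochondrial biogenesis, 10 were lower and 4 higher, and none passed. Nrf1, which encodes the factor of the motif above, was the 1 regulator whose groups did not overlap, against 2.43% of all genes. Nrf1 was picked out for that. It had levels of 0.85, 0.97, 0.92 and 0.94 in Y RNA siRNA samples, against 1.08, 1.10, 1.00 and 1.00 in control samples. Its difference of -0.12 ± 0.053 (SE) had an adjusted p of 1, and of 0.53 with the mouse as a fixed block. Of 22 tested assembly factors outside the prefixes, 12 were higher and 10 lower, of 14 citric acid cycle genes 8 and 6, and of 17 glycolysis genes 12 and 5. None of these passed the test, and the medians were 0.026, 0.0040 and 0.024. Picked out for their roles, cytochrome c itself (Cycs) had a difference of 0.039 ± 0.17 (SE) and Cyc1, the cytochrome of complex III, of -0.0013 ± 0.12 (SE).

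The cultures of the 4 mice were compared as well, by limma's F test of the mouse terms beside the siRNA. Among all genes 901 (4.7%) passed, and 1 of the 89 members did. That member was Cox6a2, the muscle isoform of subunit VIa, whose probe lies at chr7:135349160-135349219 on build mm9. Its levels were -0.29, 0.66, 0.77 and 0.47 in Y RNA siRNA samples, against -0.48, 0.92, 0.61 and 0.63 in control samples. Both samples of mouse 1 were low and the 6 others lay between 0.47 and 0.92. The mouse means spanned 1.18 on the log2 scale (adjusted p = 0.040), and mouse 1 lay 0.80 below the mean of the 4 mice. Mice 1 and 2 shared a slide row, with mouse 1 in columns 3 and 4 and mouse 2 in columns 1 and 2. The part of slide position or array brightness in this gap was not tested. Without mouse 1 the spread was 0.24 (adjusted p = 0.54), without mouse 3 or mouse 4 it was 1.18 (adjusted p = 0.090 and 0.069), and without mouse 2 it was 1.08 (adjusted p = 0.042).

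Markers of several other cell types were low in mouse 1, and those of some were high. The osteoclast markers Ctsk, Mmp9 and Acp5 passed the same test (3 of 4 detected), with mouse 1 at -2.05, -1.67 and -0.80 from the mean of the mice. The dendritic cell marker Itgax (1 of 2 detected) lay at -1.44, the neutrophil markers Mpo and S100a8 (2 of 5) at -1.41 and -0.66, and the fibroblast marker Col1a1 (1 of 4) at -0.98. Ctsk had levels of 2.44, 4.87, 5.45 and 5.15 in Y RNA siRNA samples, against 2.81, 5.30, 5.81 and 5.57 in control samples. The summed osteoclast signal ran from 0.0031% to 0.0172% of an array's total in Y RNA siRNA samples and from 0.00384% to 0.0212% in control samples. Calcr was not well above background on any array. Lum and Pdgfra among fibroblast markers and Flt3, Cd209a, Xcr1 and Clec9a among dendritic cell markers were not either. In the other direction, the fourth osteoclast marker Oscar lay at 0.059 in mouse 1. The lymphocyte markers had a median of 0.15 over 4 tested, none of which passed, and 1 of them, Cd3e, lay below the mean at -0.054. The macrophage markers had a median of 0.14 in mouse 1, and 2 of 9 passed the test, Cd14 at 0.30 (adjusted p = 0.046) and Lyz2 at 0.28 (adjusted p = 0.048). Of the 9, 3 lay below the mean in mouse 1, Mertk at -0.094, Mrc1 at -0.016 and Cd68 at -0.0092. The 3 tested muscle markers all lay below the mean in mouse 1, Myh6 at -0.78, Myh7 at -0.28 and Myl2 at -0.23, and none passed the F test. In mouse 2, where Cox6a2 lay at 0.38, Myh6 lay at -0.80, Myh7 at 0.023 and Myl2 at 0.33. Myh6 was well above background on only 4 of 8 arrays. Whether cells of these other types were present was not tested, and neither was any part of theirs in the level of Cox6a2.

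Over all members the cells of mouse 1 were a small step lower. Mouse 1 lay below the mean of the 4 mice for 64 of the 89 members, against 47.7% of all genes, and was the lowest of 4 for 49 members, against 33% of all genes. The median deviation of mouse 1 was -0.041 in complex I, -0.045 in complex II, -0.033 in complex III, -0.048 in complex IV and -0.061 in complex V, against 0.0082 over all genes. Both arrays of mouse 1 were also the dimmest, with a 75th percentile of 9.04 in its Y RNA siRNA sample and 9.04 in its control sample (log2 signal before scaling), against 9.19 to 9.34 on the 6 others, and the part of array brightness in the step was not tested. The median deviation of mouse 1 was -0.076 over the citric acid cycle and -0.12 over glycolysis, while the mitochondrially encoded subunits lay at 0.026. Over 15 tested mitosis genes it was -0.12, with mouse 1 below the mean of the mice for 14 of them and the lowest for 5. Most of the step came from 1 array. Set against the mean of the 8 arrays, the members' median was -0.0096 in the Y RNA siRNA sample of mouse 1 and -0.074 in its control sample. The difference between the siRNAs was therefore 0.071 in mouse 1 at the median member, and -0.066, -0.013 and -0.029 in mice 2 to 4. Without both arrays of mouse 1 the median difference over the members was -0.033, and 0 of the members passed the test of the siRNA.

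**Figure D4:**
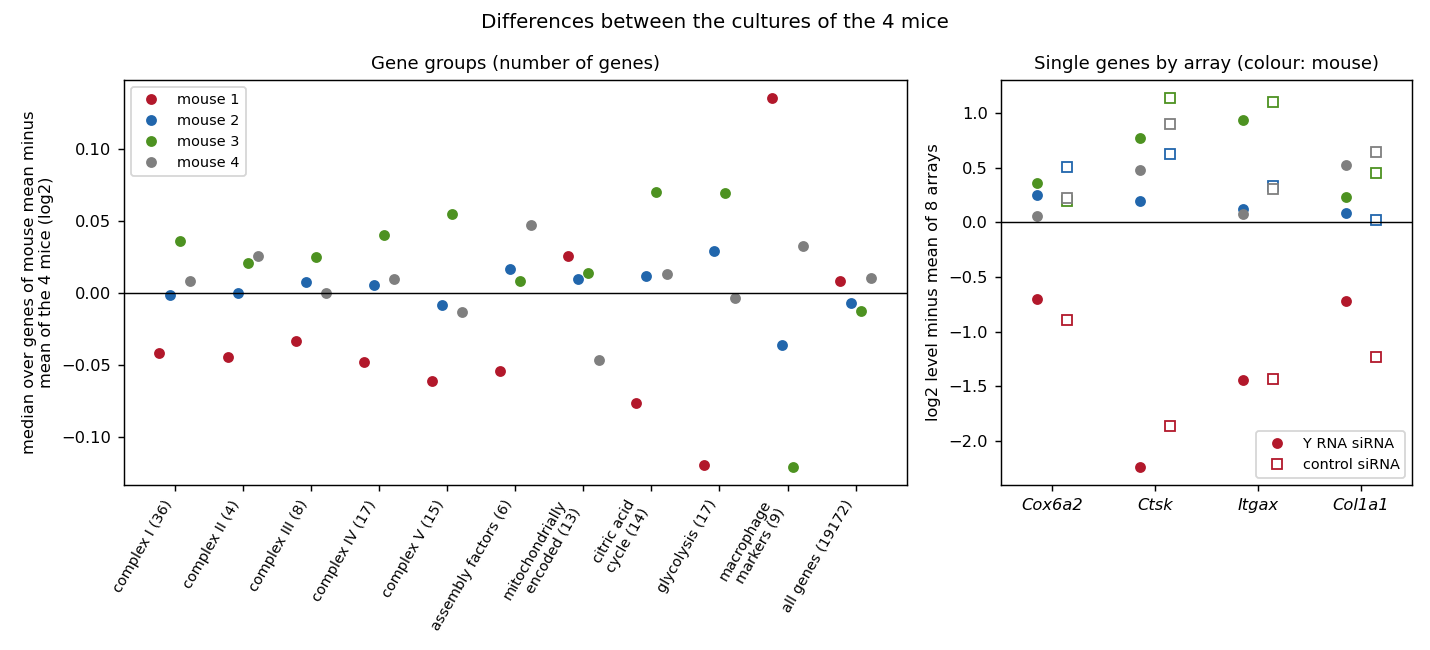
Left, median over the genes of each group of the mouse mean minus the mean of the 4 mice (log2), with the number of genes in brackets; right, log2 level of single genes by array minus the mean of 8 arrays, Y RNA siRNA as filled circles and control siRNA as open squares. Mouse 1 is the lowest point in complexes I to V, from -0.033 to -0.061, and lies below all other arrays for the 4 single genes.

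Members differed in how far the mice lay apart. The median spread of the mouse means was 0.14 over the members, against 0.25 over all genes, and 0.40 over the 5 tested isoforms known from muscle, testis, lung or hypoxia. In mouse 1 members lay on either side of the other mice, and an example of each is given, picked out after the values were seen. Cox7a2l, counted with complex IV here, had levels of 7.59, 7.39, 7.20 and 7.38 in Y RNA siRNA samples, against 7.54, 7.23, 7.15 and 7.41 in control samples. Both samples of mouse 1 were the highest of their group (adjusted p = 0.087 in the F test of the mice, and 0.039 with normexp background correction). Cox6b2 and Atp5sl were likewise above the mean of the mice in mouse 1, by 0.27 and 0.19. Ndufaf4, a complex I assembly factor, had levels of 1.84, 2.17, 2.29 and 2.12 in Y RNA siRNA samples, against 1.83, 2.15, 2.19 and 2.14 in control samples. Both samples of mouse 1 were the lowest of their group, and the F test of the mice missed the threshold (adjusted p = 0.058). Ndufaf4 passed that test with normexp background correction (adjusted p = 0.017), in the deposited value table (0.026) and with array weights (0.044). It also passed with quantile normalization (0.049) and with probes well above background on all 8 arrays (0.045). Other alternatives did not call it.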

How the data were processed

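Total RNA of 8 macrophage samples was labelled with Cy3 and hybridised to 8 arrays on 1 slide, per the labels' protocols. Spot intensity, as deposited, was read by Agilent Feature Extraction 10.7.3.1, per the file headers. Its processed form had the background subtracted and a spatial trend removed, and arrays had not been normalized to each other. A second deposited table, of the authors' log2 values (column medians 6.26 to 6.27, method and centring not stated), served as an alternative only.

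Each array held 62976 spots, of which 3671 control spots were left out. The processed signal was put on a log2 scale and each array's 75th percentile (9.04 to 9.34) subtracted, with outlier spots removed and spots of a probe averaged. A probe was kept if 4 or more of 8 arrays had it well above background (26820 of 55681), and the brightest stood for a gene (19172 genes); other probes of 29 members differed in sign for 12. For 38 genes, no member among them, 1 or more arrays were missing. No spot was saturated, and the number of arrays limits the precision.

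The siRNAs were compared by two-sided limma fits (version 3.58.1, R 4.3.3; lmFit, then eBayes) without a block, with Benjamini-Hochberg adjustment over all genes. The series design states 4 mice under both conditions, and replicate numbers were taken to pair samples. Deviations from the group means correlated between the arrays of each replicate number at 0.618, 0.155, 0.582 and 0.285. Both arrays of a replicate number also sat side by side in a slide row, so these correlations cannot tell the mouse from slide position. The code was tested on simulated data. Members and lists were chosen with earlier results of these data known. Named are every isoform and c subunit gene, the 3 members per complex with the smallest p, and those passing a threshold or not overlapping. Also named are the genes counted as neither subunit nor assembly factor. Any other member is marked as picked out. Alternatives were other background corrections, scalings, filters, probe choices, array weights, left-out arrays and mouse blocks. Names and promoters are from RefSeq for GRCm38.p6; probe positions are those of the files (mm9). The probes used for Atp5j2, Atp5k, Atp5l and Cox5b have mm9 positions off the gene's chromosome, so their signal may include a copy.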

Additional observations from a re-analysis of the deposited data

Results flagged for a closer look

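Of 124 groups of 4 arrays examined among the genes given with values and the medians of the complexes, 9 held a sample far from the other 3, and chance alone picks about 1 in 20 groups. In mouse 1 under the Y RNA siRNA, Sdhb had a level of 6.68, against 6.49 to 6.50 in the other Y RNA siRNA samples, the gap being 0.925 of the group's range. In the control sample of mouse 1, Sdhc had a level of 4.93, against 5.18 to 5.21 in the other control samples (gap 0.901 of the range). Uqcrfs1 had 4.96 in that sample, against 4.79 to 4.80 in the other control samples (0.98), and Ndufaf4 had 1.83, against 2.14 to 2.19 (0.857). None of these 4 members passed the test of the mice, though Ndufaf4 passed it in some alternatives.

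The osteoclast markers stood apart in mouse 1 as well. Mmp9 had a level of -4.74 in the Y RNA siRNA sample of mouse 1, against -2.51 to -2.12 in the other Y RNA siRNA samples (gap 0.849 of the range). In the control sample of mouse 1 it had -4.01, against -2.03 to -1.80 in the other control samples (0.894), and Ctsk had 2.81, against 5.30 to 5.81 (0.831). Ttc19, an assembly factor of complex III, had -1.32 in the control sample of mouse 4, against -0.01 to 0.02 in the other control samples (0.978). The dim muscle marker Myh6 had -3.98 in the control sample of mouse 3, against -4.63 to -4.52 in the other control samples (0.83).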

How the results depend on the processing

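In no alternative tried was a member changed by the siRNA. The random mouse block called 11 genes and 0 members; the replicate block as a fixed term called 0 genes and 0 members, and changed no call of a member. Members at an unadjusted p under 0.05 numbered 0 to 5 over the alternatives. The numbers of genes differing between mice and of members differing between mice depended on the processing, and the cause was not tested. They were 3294 genes and 6 members with normexp background correction, 1859 and 4 in the deposited value table, and 1512 and 3 with array weights. There were 2 members with quantile normalization and 2 with probes well above background on all 8 arrays, and 176 genes and 0 members with no filter. Leaving out arrays or mice gave 2 to 1219 genes and 0 to 1 members, the lowest without mouse 1. Cox6a2 was among the members called in each setting that called any, with an adjusted p of 0.13 without a filter. Ndufaf4 was called beside it with normexp, quantile normalization, array weights, the deposited table and probes well above background on all 8 arrays. Medians of complexes I, II, III and V took either sign (-0.039 to 0.029 over these 4), that of complex IV stayed between -0.11 and -0.014, and, in lists whose medians were added after seeing the data, that of the isoforms known from muscle, testis, lung or hypoxia between -0.27 and -0.081, and that of the mitochondrially encoded subunits between -0.13 and -0.058. Over the settings, mouse 1 lay at a median of -0.061 to -0.028 over the members and 0.0036 to 0.040 over all genes. Of the named members, 15 took the other sign in some setting, with no call in any. Detected members numbered 89, or 88 on all 8 arrays. The SE of Cox6a2 was 0.34 without a block, against 0.096 once the mouse was a fixed term.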

Other observations

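The control sample of mouse 4, the one with the lower RNA integrity number, stood apart for several genes of the system, picked out after their values were seen. Ttc19, an assembly factor of complex III, had levels of -0.03, 0.01, 0.10 and 0.11 in Y RNA siRNA samples, against 0.01, 0.02, -0.01 and -1.32 in control samples. Ndufa12 was low in the same sample, and Cox5a and Cox5b were high, with Cox5b at 6.15, against 5.65 to 5.88 in the other control samples and 5.76 to 5.86 in Y RNA siRNA samples. Ppargc1a, a coactivator of mitochondrial biogenesis, was well above background on 5 of 8 arrays. It had levels of -3.76, -5.05, -4.59 and -5.31 in Y RNA siRNA samples, against -3.85, -4.10, -4.26 and -4.30 in control samples, and its difference of -0.55 ± 0.31 (SE) did not pass the test.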
